A study of Mus musculus with 2 samples.

Results

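The 33 genes of fatty acid and cholesterol synthesis described here were given as a list of names, of 28205 features counted besides the reporter. It was chosen by pathway and holds 12 genes that make, elongate or desaturate fatty acids, 16 enzymes of the mevalonate and sterol pathway, and 5 regulators of both routes. All 33 had a feature and at least 15 UMIs (unique molecular identifiers, 1 per captured transcript) in the cells kept. The list, and the splits of cells by S phase, G2/M, Procr, Gata1 or Klf1 and reporter transcripts, were proposed with results of these data in view. The cells of each split were selected on UMIs of those genes, so values across the splits are given as description, with no test.

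The cells were a single pool of mouse bone marrow depleted of lineage-positive cells, profiled by inDrops droplet single-cell RNA sequencing. It mixed 2 kinds of sorted cells. The GFP+ cells came from Mds1-GFP/+ Flt3-Cre mice and were sorted as DAPI- GFP+. The label Mds1-GFP places GFP at Mds1, a part of Mecom, in a cassette flanked by loxP sites, and is removed where the recombinase cuts. The carrier cells were long-term hematopoietic stem cells (LT-HSCs) of wild-type animals, gated as DAPI- Lin- cKit+ Sca+ CD48- CD150+, the SLAM gate. The animals' age is not given in the sources. The pool was sequenced as 2 aliquots, which are technical, so n = 1 and p-values are not possible. The intervals below are exact 95% intervals that cover counting error only, since UMIs of 1 cell are not independent and cells are not replicates.

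Barcodes counted as cells when they held 500 UMIs or more and no more than 20% mitochondrial UMIs. Aliquot 1 gave 1574 cells with a median of 946.5 UMIs, and aliquot 2 gave 1828 cells with a median of 2071.5 UMIs, 3402 cells and 5668067 UMIs together. A GFP UMI was found in 71 cells (23 and 48 in aliquots 1 and 2), and the labels put their number at 46 by the authors' filter. The libraries had 55 names of kept barcodes in common, or 110 cells, and values without those cells are given beside the leading results. The cells carried LT-HSC markers at 2992 CPM (counts scaled to a total of 1e6 UMIs) over 12 genes. Neutrophil markers stood at 2241 CPM over 10 genes, but lay in few cells: 1338 of their 12701 UMIs were in 1 cell, and 87.9% of cells had none after thinning to 500 UMIs.

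Cells build saturated and monounsaturated fatty acids from cytosolic citrate. Acly splits citrate into acetyl-CoA, Acaca carboxylates it, Fasn assembles palmitate, and the Elovl elongases and Scd and Fads desaturases lengthen and desaturate the chains. The mevalonate route condenses acetyl-CoA through Hmgcs1 and later enzymes into isoprenoids, and from squalene, which Sqle oxidises, a chain of enzymes that includes Dhcr7 makes cholesterol. Both routes are under the SREBP transcription factors. Srebf1 and Srebf2 encode precursors held in the endoplasmic reticulum by Scap and the Insig proteins while sterols are plentiful, and cleaved and sent to the nucleus when sterols run low. SREBP factors bind sterol regulatory elements, usually beside sites of the CCAAT-binding factor NF-Y and of Sp1.

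Promoter windows from 250 bases before to 50 bases after the RefSeq transcript start (GRCm38.p6) were matched for 27 of the 33 genes. Fads1, Fdft1, Fdps, Scd1, Scd2 and Sqle were not matched. The windows below belong to the enzymes and regulators on which the comparisons turn, read 5′ to 3′ on the strand of the gene. Capitals mark CCAAT on either strand (ATTGG on the other) and, in Hmgcs1, the sterol regulatory element letters TCACNCCAC. The windows are those of Hmgcs1 (chr13:119690101-119690400 on the plus strand), Idi1 (chr13:8885356-8885655 on the plus strand), Ebp (chrX:8193463-8193762 on the minus strand), Fasn (chr11:120824498-120824797 on the minus strand), Srebf2 (chr15:82147019-82147318 on the plus strand) and Insig1 (chr5:28071162-28071461 on the plus strand).
Hmgcs1: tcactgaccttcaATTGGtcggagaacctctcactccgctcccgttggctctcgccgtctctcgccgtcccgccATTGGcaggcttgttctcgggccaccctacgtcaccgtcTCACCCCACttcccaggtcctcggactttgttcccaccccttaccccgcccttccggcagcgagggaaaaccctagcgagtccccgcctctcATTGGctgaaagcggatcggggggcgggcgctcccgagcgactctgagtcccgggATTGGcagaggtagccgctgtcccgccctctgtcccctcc
Idi1: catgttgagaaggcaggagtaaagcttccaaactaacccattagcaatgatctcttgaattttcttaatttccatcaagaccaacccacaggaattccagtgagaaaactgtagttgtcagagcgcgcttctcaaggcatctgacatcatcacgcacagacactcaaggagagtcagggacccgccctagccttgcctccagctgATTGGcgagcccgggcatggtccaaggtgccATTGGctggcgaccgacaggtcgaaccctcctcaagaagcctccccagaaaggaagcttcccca
Ebp: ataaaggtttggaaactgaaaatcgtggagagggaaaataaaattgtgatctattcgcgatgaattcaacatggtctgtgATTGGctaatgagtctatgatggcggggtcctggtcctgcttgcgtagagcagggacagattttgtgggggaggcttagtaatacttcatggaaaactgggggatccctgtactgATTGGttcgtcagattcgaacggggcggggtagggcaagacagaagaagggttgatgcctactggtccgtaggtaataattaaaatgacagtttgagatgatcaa
Fasn: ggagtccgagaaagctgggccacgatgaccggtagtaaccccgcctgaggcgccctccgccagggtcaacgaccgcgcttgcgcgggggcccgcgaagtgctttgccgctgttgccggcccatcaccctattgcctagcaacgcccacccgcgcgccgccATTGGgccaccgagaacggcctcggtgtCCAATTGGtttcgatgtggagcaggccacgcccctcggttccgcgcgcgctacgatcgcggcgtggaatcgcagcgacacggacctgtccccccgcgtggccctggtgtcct
Srebf2: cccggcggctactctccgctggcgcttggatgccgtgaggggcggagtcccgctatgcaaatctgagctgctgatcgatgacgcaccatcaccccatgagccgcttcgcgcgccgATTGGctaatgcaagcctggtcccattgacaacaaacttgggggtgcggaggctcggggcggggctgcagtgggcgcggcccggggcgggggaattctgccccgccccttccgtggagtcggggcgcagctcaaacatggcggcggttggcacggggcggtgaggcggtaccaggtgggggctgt
Insig1: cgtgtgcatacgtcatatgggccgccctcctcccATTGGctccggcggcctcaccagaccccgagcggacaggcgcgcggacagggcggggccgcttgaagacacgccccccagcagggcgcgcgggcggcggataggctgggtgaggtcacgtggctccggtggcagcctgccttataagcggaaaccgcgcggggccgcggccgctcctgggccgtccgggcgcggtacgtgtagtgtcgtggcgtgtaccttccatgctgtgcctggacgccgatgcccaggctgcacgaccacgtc

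The letters TCACNCCAC were found in 1 of the 27 promoters, that of Hmgcs1, which encodes HMG-CoA synthase, with the first base at -137 from the start. Of all 27025 genes with a window, 388 had such a match, 1.44%. CCAAT was found in 23 of the 27 promoters, 85.2%, and in all 13 of the sterol enzymes that had a window. Among all genes with a window the share was 41.1%, and among the 6016 of them with at least 100 UMIs in these cells it was 42.7%. The Sp1 letters GGGCGG were in 22 of the 27, 81.5%, against 38.2% of all genes and 71.9% of the genes with at least 100 UMIs. The E-box CACGTG was in 6 of the 27, 22.2%, against 8.09% of all genes and 12.8% of the genes with at least 100 UMIs. Both strands were searched. Hmgcs1 held 4 CCAAT matches, none of which overlapped TCACNCCAC, and Fasn held 3, of which those at -62 and -59 overlap each other. A gene with several windows counted once, as matched if any window was. Counted by window, CCAAT was in 24 of 37 windows of these genes, 64.9%, against 37.4% of all 32851 windows. These matches are letters in a window and not measured binding.

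The genes together took 9723 UMIs, 1715 CPM (1681 to 1750) or 0.172% of all UMIs, with 1833 CPM in aliquot 1 and 1668 CPM in aliquot 2. The fatty acid enzymes held 4658 UMIs (822 CPM), the regulators 2653 (468 CPM) and the sterol enzymes 2412 (426 CPM). The median gene of the list had 196 UMIs, and the median of the 22476 features detected was 25. Of the 33 genes, 24 had at least 100 UMIs. Barcodes with at most 200 UMIs, which can hold free RNA, carried the same genes at 1055 CPM (722 to 1490, from 32 UMIs) in aliquot 1 and 1566 CPM in aliquot 2, so detection in a single cell was not read as expression by that cell. CPM of 3′ tagged transcripts counts molecules, so levels of different genes below are not corrected for how well each is captured or assigned.

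The fatty acid route was dominated by a desaturase. Scd2 (chr19:44293674-44306864, plus strand), a stearoyl-CoA desaturase that makes monounsaturated fatty acids, had 288 CPM in aliquot 1 and 238 CPM in aliquot 2, from 1430 UMIs. Its neighbour Scd1, the main desaturase of liver, had 39 UMIs, at 5.5 and 7.4 CPM in the aliquots, so that Scd2 took 97.3% (96.4 to 98.1%, Clopper-Pearson) of the UMIs of the pair. The pair are paralogs, and how shared reads were assigned is not given. Fads1, the delta-5 desaturase of polyunsaturated fatty acids, followed at 130 and 123 CPM, while its partner Fads2, the delta-6 desaturase, had 15 UMIs. The elongase Elovl5 stood at 88.4 and 94.9 CPM, Acly at 86.5 and 87.4 CPM, and Fasn at 82.9 and 88.1 CPM. These 3 differed little between the aliquots, and Acly, Elovl5 and Fasn could not be ordered among themselves, since their intervals over both aliquots overlap within 79.1 to 101 CPM. Elovl1 (63.7 CPM over both aliquots), Elovl6 (44.1), Acaca (32.1) and Acss2 (23.3), which activates acetate, were lower, and Me1, the NADPH-making malic enzyme, had 26 UMIs.

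**Figure D1:**
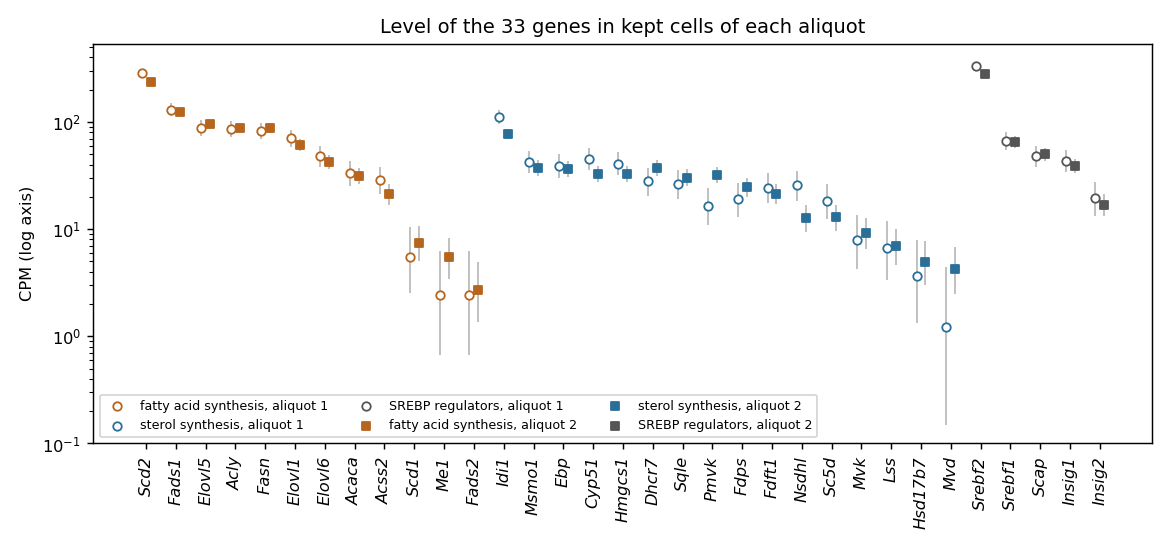
Level of each of the 33 genes in CPM (log axis) in kept cells of aliquot 1 (open circles) and aliquot 2 (filled squares), with exact Poisson 95% intervals as grey bars and colours by role. Srebf2 and Scd2 stand above all other genes of the list in both aliquots, and Fads2, Me1, Mvd and Hsd17b7 lie lowest, at 2.6 to 4.6 CPM over both.

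Among regulators, Srebf2, which drives mainly sterol genes, was the most abundant transcript of the whole list, at 332 CPM in aliquot 1 and 280 CPM in aliquot 2 (1673 UMIs, rank 427 of the features). Srebf1, which drives mainly fatty acid genes, stood at 66.4 and 65.3 CPM, so that Srebf2 had 4.50 times the UMIs of Srebf1. Scap, the escort of the precursors, had 49.4 CPM over both aliquots, the retention protein Insig1 40.2 CPM and its relative Insig2 17.6 CPM. Levels of the transcripts say nothing of how much of the factors was in the nucleus.

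The sterol pathway lay lower and more evenly. Idi1, the isomerase of isopentenyl diphosphate, led it with 111 and 77.5 CPM in aliquots 1 and 2. The next genes were Msmo1 (38.8 CPM over both aliquots), Ebp (37.2), Cyp51 (36.3), Hmgcs1 (35.1) and Dhcr7 (34.6), enzymes from both ends of the route. Their intervals overlap, and their order is not resolved. Sqle had 29.1, Pmvk 27.5, Fdps 22.9, Fdft1 22.2, Nsdhl 16.4 and Sc5d 14.5 CPM. The lowest were Mvk (50 UMIs), Lss (39), Hsd17b7 (26) and Mvd (19). Aliquots differed for Nsdhl, with 25.6 CPM in aliquot 1 and 12.7 CPM in aliquot 2, and for Pmvk, with 16.5 and 32.0 CPM.

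Over both aliquots, cells with an S phase programme carried more of the sterol enzymes, summed, and of Fasn than cells with neither cycle programme. Srebf2 was lower, with an interval that includes a ratio of 1. Each cell was thinned to 500 UMIs, and S phase cells were those with at least 4 UMIs of 37 S phase genes and fewer than 2 UMIs of 41 G2/M genes. This gave 406 S phase cells (207 and 199 in the aliquots, median 1647 UMIs) and 2458 cells below both cuts (median 1273.5 UMIs). 196 cells lay at the S phase cut and 279 just below it. The classes are ranges of a count, not cell types. Because thinning is random, each ratio below is followed by its range over 20 thinning draws. The sterol enzymes stood at 503 CPM in S phase cells, against 410 CPM in cells of neither class, a ratio of 1.23 (1.10 to 1.37, draws 1.15 to 1.35). The fatty acid enzymes stood at 938 against 831 CPM, 1.13 times (1.04 to 1.22, draws 1.01 to 1.17). The regulators went the other way, at 438 against 504 CPM, 0.87 times (0.77 to 0.97, draws 0.70 to 0.89). Srebf2 held 63.1% of the regulator UMIs over all kept cells, so this sum is not separate from the value of Srebf2. In aliquot 1 alone the sterol and fatty acid ratios were 1.08 and 1.02 and in aliquot 2 they were 1.30 and 1.18, so the difference in the enzymes was larger in aliquot 2.

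Of the 33 genes, 26 had at least 10 UMIs expected in the smaller set, which is the gene's UMIs over both sets times that set's share of all UMIs. This was the condition for being measured. Me1, Scd1, Fads2, Mvk, Mvd, Lss and Hsd17b7 did not. 6 of the 26 were at least 1.5 times higher and 2 at most 1/1.5 times as high in S phase cells. Of all 8870 genes measured, 10.8% passed the upper bound and 16.1% the lower. In aliquot 1 alone 0 of 15 measured genes of the list passed the upper bound, against 11.5% of all genes measured. In aliquot 2 alone 5 of 23 did, against 11.9%. The median log2 ratio was 0.06 over the 26 genes and -0.06 over all genes measured. Of the 12 sterol enzymes measured, 7 were above a ratio of 1 and 5 below. 5 of the 26 genes were above 1 in all 20 draws and 2 below 1, and these are described first. The share of all genes that held 1 direction is not given here, and the draws thin the same cells. The intervals of Acaca, Fdps, Scd2 and Srebf2, which are among these genes, include 1.

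Fasn, the multifunctional synthase that assembles palmitate, had 101 CPM in S phase cells of aliquot 1 and 142 CPM in those of aliquot 2, against 89.9 and 79.1 CPM in cells of neither class. Over both it was 1.56 times as high (1.24 to 1.96, draws 1.36 to 2.01), with the difference mainly in aliquot 2. On thinned counts, which hold far fewer UMIs, the log2 ratio of Fasn was 0.03 in place of 0.65, and without the shared barcodes it was 0.65. Idi1 had 124 and 121 CPM in S phase cells of aliquots 1 and 2, against 98.5 and 72.7 CPM in cells of neither class, 1.53 times over both (1.20 to 1.93, draws 1.31 to 1.84). Its S phase level was above that of the other cells in both aliquots.

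Ebp, the sterol isomerase, had 46.5 and 53.4 CPM in S phase cells of the aliquots, against 25.8 and 32.2 CPM in cells of neither class, 1.68 times (1.15 to 2.43, draws 1.11 to 1.98). Fdps, which makes farnesyl diphosphate, had 23.2 and 33.1 CPM, against 16.3 and 20.8 CPM, 1.53 times (0.92 to 2.46, draws 1.49 to 2.40), from 24 UMIs. For Ebp and Fdps the S phase level was higher in each aliquot, but the interval of Fdps includes 1. Acaca, the carboxylase that commits acetyl-CoA to fatty acids, was 1.17 times as high (0.75 to 1.77, draws 1.07 to 1.93) (0.77 in aliquot 1, 1.39 in aliquot 2). Dhcr7, a sterol reductase, stood at 1.52 times (1.04 to 2.19), but its direction turned in some draws. Pmvk, the phosphomevalonate kinase, was at 1.57 times, yet 13 of its 33 UMIs in S phase cells were in 1 cell and its ratio in aliquot 1 was 0.18.

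Srebf2 had 314 and 260 CPM in S phase cells of aliquots 1 and 2, against 372 and 295 CPM in cells of neither class, 0.87 times (0.75 to 1.01, draws 0.62 to 0.87). Scd2 had 279 and 236 CPM, against 297 and 246 CPM, 0.96 times (0.82 to 1.12, draws 0.71 to 0.97). For both, the draw shown is at or near the highest of the 20, and the draws' medians were 0.74 and 0.85. These 2 most abundant genes of the list were therefore not among those with higher S phase levels. Insig2 and Fdft1, the squalene synthase, were the 2 genes past the lower bound, at 0.50 and 0.60 times, from 8 and 12 UMIs, and neither held 1 direction in all draws.

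**Figure D2:**
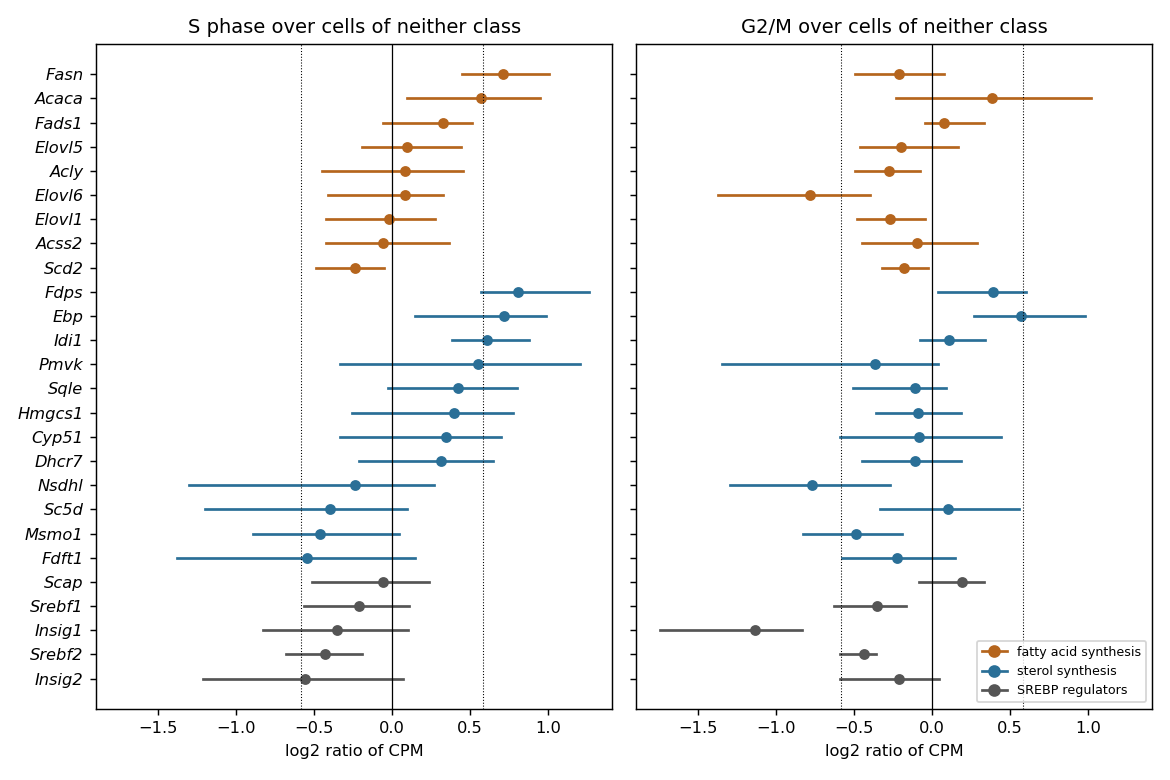
Log2 ratio of CPM in S phase cells (left) and G2/M cells (right) over cells of neither class for the 26 measured genes, coloured by role. Points are the median and bars the range of 20 thinning draws, and dotted lines mark ratios of 1.5 and 1/1.5. Fasn, Fdps, Ebp and Idi1 lie to the right of 0 in all S phase draws, and Insig1 and Elovl6 to the left of 0 in all G2/M draws.

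Over both aliquots, Fasn also differed across the range of S phase counts. In cells with 0, 1, 2, 3, 4, 5 and 6 or more S phase UMIs after thinning, all below the G2/M cut, it had 70.0, 75.2, 103, 126, 126, 100 and 150 CPM. The lower levels were in cells with 0 or 1 such UMI and the highest in cells with 6 or more, with a dip at 5 that rests on 21 UMIs. In the same order Fasn had 80.8, 82.0, 121, 105, 47.4, 54.7 and 179 CPM in aliquot 1, and 66.0, 72.3, 96.7, 136, 160, 124 and 136 CPM in aliquot 2. Aliquot 1 was thus low at 4 and 5 S phase UMIs, from 4 Fasn UMIs each. Srebf2 had 333 and 354 CPM in cells with 0 and 1 S phase UMIs and 241 CPM in cells with 6 or more, with no steady order between. Scd2 had no steady order either. The sterol enzymes stood at 388 to 410 CPM in cells with 0 to 2 S phase UMIs and at 453 to 547 CPM in cells with 3 or more. At 5 S phase UMIs they were at 342 CPM in aliquot 1 and 513 CPM in aliquot 2.

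**Figure D3:**
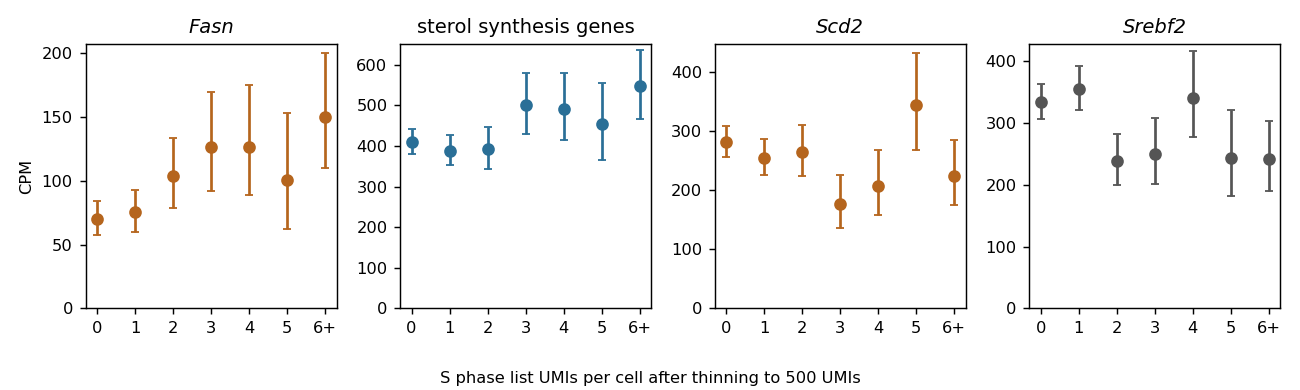
CPM of Fasn, the sterol enzymes, Scd2 and Srebf2 by the number of S phase UMIs per cell after thinning, with exact Poisson 95% intervals. Fasn lies at 70.0 and 75.2 CPM at 0 and 1 UMIs and at 150 CPM at 6 or more, while Scd2 and Srebf2 show no steady order.

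Other genes of lipid metabolism, from lists outside the 33, gave a background to the S phase values. The other fatty acid genes, among them elongases, acyl-CoA synthetases and NADPH-making enzymes, stood at 957 CPM in S phase cells, against 900 CPM in cells of neither class, 1.06 times (0.98 to 1.15, draws 1.02 to 1.16), and of 13 measured 0 were past the upper and 1 past the lower bound. Among them Pgd, an NADPH-making enzyme of the pentose phosphate pathway, was at 1.44 times (draws 1.22 to 2.00). The genes of SREBP processing were at 246 against 248 CPM, 0.99 times (0.84 to 1.16), with 0 of 3 measured past a bound. Acat1, a mitochondrial thiolase, was at 1.49 times (draws 1.18 to 1.59). Sterol uptake and export genes were at 416 against 550 CPM, 0.755 times (draws 0.70 to 0.84). Among them Npc2, a lysosomal cholesterol carrier, was at 0.73 times and Abca1, a cholesterol exporter named after its value was seen, at 0.53 times. Fatty acid oxidation genes were at 757 against 894 CPM, 0.847 times (draws 0.79 to 0.95), and 11 of the 12 were below 1, as were 4820 of the 8870 genes measured. None of the 12 was past the lower bound. Of these, Cpt1a, the gate of mitochondrial import and likewise chosen with its value known, was at 0.83 times (draws 0.51 to 0.83) and Acadm, the medium-chain dehydrogenase, at 0.81 times (draws 0.62 to 0.95).

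LT-HSC markers moved with the S phase split, at 2146 CPM in S phase cells, against 3517 CPM in cells of neither class, with 8 of 12 past the lower bound. Megakaryocyte markers stood at 1400 against 986 CPM. Their part in the lipid values was not tested.

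G2/M cells carried less of the regulators and, summed, of the fatty acid enzymes than cells of neither class. Of the 9 measured fatty acid genes, 1 was past the lower bound, Elovl6. The 538 G2/M cells (238 and 300, median 1807.5 UMIs) had at least 2 UMIs of the G2/M list. 185 cells lay at that cut and 617 just below it. The regulators stood at 388 CPM in G2/M cells, against 504 CPM in cells of neither class, 0.77 times (0.69 to 0.85, draws 0.71 to 0.79). Here too the sum includes Srebf2 and is not separate from its value. The fatty acid enzymes stood at 737 against 831 CPM, 0.89 times (0.82 to 0.96, draws 0.83 to 0.94). The sterol enzymes stood at 436 against 410 CPM, 1.07 times (0.96 to 1.18), and the draws spanned 0.93 to 1.08. Of the 26 genes measured, 2 were past the upper and 2 past the lower bound, against 10.6% and 15.6% of 9823 genes. The median log2 ratio of the 26 was -0.17, and that of all genes measured was -0.05.

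Insig1, which holds Scap back and is itself a target of SREBP, had 18.4 CPM in G2/M cells of aliquot 1 and 23.2 CPM in those of aliquot 2, against 53.6 and 43.9 CPM in cells of neither class. Over both it was 0.47 times as high (0.29 to 0.72, draws 0.30 to 0.56), from 25 UMIs, and lower in each aliquot. On thinned counts its log2 ratio was 0.18 in place of -1.09. Elovl6, the elongase of palmitate, had 33.7 and 23.2 CPM, against 55.5 and 45.4 CPM, 0.54 times (0.36 to 0.80, draws 0.39 to 0.76), again lower in each aliquot. With the G2/M cut 1 UMI lower its log2 ratio was -0.27 in place of -0.88. Srebf2 had 230 and 254 CPM in G2/M cells, against 372 and 295 CPM, 0.78 times (0.68 to 0.89, draws 0.67 to 0.78). Srebf1 had 52.1 and 47.7 CPM, against 69.8 and 70.4 CPM, 0.70 times (0.51 to 0.93, draws 0.65 to 0.89).

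Ebp was at 1.67 times (1.19 to 2.31, draws 1.20 to 1.98) in G2/M cells (2.97 in aliquot 1, 1.25 in aliquot 2). Fdps was at 1.52 times (0.98 to 2.32, draws 1.03 to 1.52). These were the 2 genes past the upper bound, and they were also higher in S phase cells, which share the cells of neither class as comparison. Fasn was at 0.90 times in G2/M cells, with draws of 0.71 to 1.06.

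Neutrophil markers moved with the G2/M split, at 6555 CPM in G2/M cells, against 1145 CPM in cells of neither class, with 9 of the 10 past the upper bound. Basophil and mast cell markers were at 275 against 123 CPM, with 3 of 3 measured past the upper bound. LT-HSC markers were at 1984 against 3517 CPM, with 8 of 12 past the lower bound, and their part in the lipid values was not tested. Cells with at least 3 granulocyte marker UMIs numbered 41. Without them the log2 ratios of G2/M cells over cells of neither class were -0.33 for the regulators, in place of -0.38, and -1.10 for Insig1, in place of -1.09.

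Set against each other, S phase cells had more of the fatty acid enzymes than G2/M cells. They stood at 938 CPM in S phase cells, against 737 CPM in G2/M cells, 1.27 times (1.15 to 1.41, draws 1.12 to 1.32). 7 of the 26 genes were past the upper bound and 1 past the lower, against 10.1% and 12.5% of the 8708 genes measured. In aliquot 1 alone 2 of 14 measured genes of the list passed the upper bound, against 11.9% of all genes measured. In aliquot 2 alone 7 of 21 did, against 12.1%. Of the 7 genes over both aliquots, Dhcr7, Elovl1 and Insig1 turned direction under another setting, as did Pmvk. Fasn had 101 and 142 CPM in S phase cells of aliquots 1 and 2, against 49.1 and 84.3 CPM in G2/M cells, 1.73 times (1.29 to 2.33, draws 1.66 to 2.47), and was above 1.5 in all 20 draws. Its log2 ratio on thinned counts was 0.03 in place of 0.79. Elovl6 was at 2.00 times (1.22 to 3.31, draws 1.36 to 2.46) (1.15 in aliquot 1, 2.54 in aliquot 2). Acly was at 1.53 times (1.12 to 2.10, draws 0.89 to 1.59), with 1.38 and 1.61 in the aliquots, and 1 of the 20 draws was below 1. The sterol enzymes were at 1.15 times (1.01 to 1.32, draws 1.07 to 1.43) (0.96 in aliquot 1, 1.25 in aliquot 2). Neutrophil markers were at 1223 CPM in S phase cells, against 6555 CPM in G2/M cells, with 9 of 10 past the lower bound. Without granulocyte-marker cells the log2 ratio of the fatty acid enzymes was 0.34, in place of 0.35.

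Cells with a GFP UMI carried less Scd2 than the rest. They were found on full counts and had a median of 1702 UMIs, against 1412 UMIs in cells with no GFP UMI. The 71 cells had 8 Scd2 UMIs, where 34.6 would match their share of all UMIs. This was 42.5 CPM in aliquot 1 (1 UMI) and 61.7 CPM in aliquot 2 (7 UMIs), against 291 and 243 CPM in cells with no GFP UMI, so the level was lower in each aliquot. No other of the 7 measured genes had a ratio as low, and the ratio of Scd2 stood at 0.23 (0.10 to 0.45). Its log2 ratio was -2.14, and it stayed between -2.78 and -1.83 over 12 alternative settings, which include 1000 UMIs per cell, at least 2 GFP UMIs, each aliquot alone, cells below both cycle cuts and the removal of shared barcodes (-2.06). Scd1 had 2 UMIs in the GFP cells.

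The fatty acid enzymes together stood at 518 CPM in GFP cells, against 829 CPM in the others. This was 0.625 times (0.49 to 0.79) (0.39 in aliquot 1, 0.68 in aliquot 2). The sum includes Scd2, with 8 UMIs in GFP cells and 1422 in the others, so it is not separate from the Scd2 difference. Of the 5 fatty acid genes measured, 2 were above 1 and 3 below. The sterol enzymes stood at 336 against 428 CPM, 0.785 times (0.57 to 1.05), and the regulators at 394 against 470 CPM, 0.84 times (0.63 to 1.10). The intervals of both include 1. Of the 7 measured genes 3 were past the lower bound and 0 past the upper, against 13.9% and 7.21% of 2759 genes. Besides Scd2 these were Elovl5, with 6 UMIs and 0.46 times (0.17 to 1.02), and Acly, with 7 UMIs and 0.58 times (0.23 to 1.20), whose intervals include 1. Fasn, with 12 UMIs, was at 1.01 times (0.52 to 1.78), Fads1, with 21 UMIs, at 1.23 times (0.76 to 1.89), Idi1 at 0.83 times and Srebf2 at 0.71 times (0.48 to 1.03). By aliquot, Srebf2 was at 1.16 times in aliquot 1 (9 UMIs in GFP cells) and 0.62 times in aliquot 2 (20 UMIs), and Elovl5 at 0.96 times (2 UMIs) and 0.36 times (4 UMIs), while Acly had 0 UMIs in GFP cells of aliquot 1 and 0.70 times in aliquot 2. The other 26 genes had too few UMIs to be measured in GFP cells, and 2 of them, Mvk and Nsdhl, had 0, which allows up to 21.9 CPM each (3 counts over the 71 cells).

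**Figure D4:**
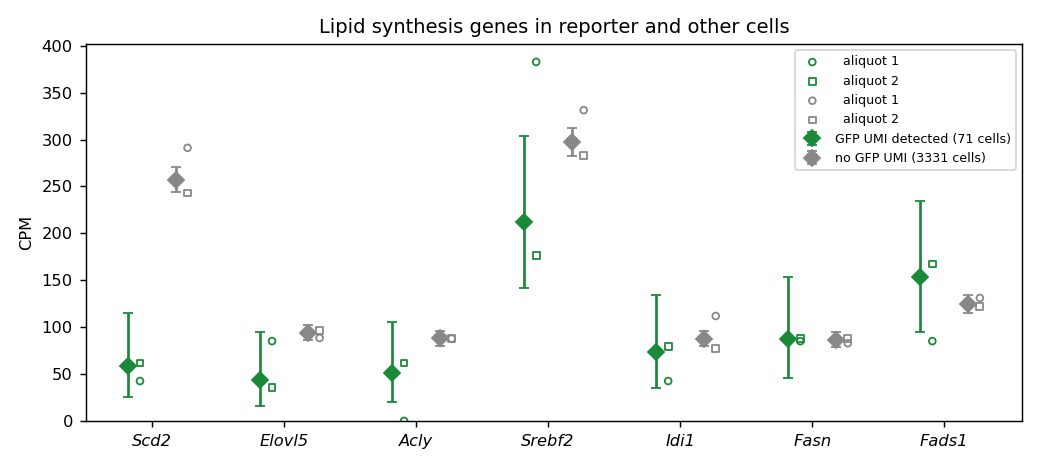
CPM of the 7 measured genes in cells with a GFP UMI (green) and in cells without one (grey), with exact Poisson 95% intervals. Diamonds are both aliquots, small circles aliquot 1 and small squares aliquot 2. Scd2 lies at 58.4 CPM in GFP cells, against 257 CPM in the others, and is the gene of the 7 whose intervals are farthest apart.

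Fatty acid oxidation genes, summed, stood higher in GFP cells, at 1197 CPM, against 850 CPM in the others. This was 1.41 times (1.20 to 1.65), or 1.23 times once the top cell was left out. Of the 12 genes 6 were measured, with 2 past the upper and 0 past the lower bound. Of all 2759 genes measured, 7.21% and 13.9% were past these bounds. Among the 6, 4 were above 1 and 2 below. Acadm, the medium-chain dehydrogenase, was at 1.74 times, with 10 of its 33 UMIs in 1 cell. Cpt1a was at 1.83 times (1.09 to 2.89), from 1 UMI in aliquot 1 and 18 in aliquot 2. S phase genes were at 1.03 times and G2/M genes at 0.85 times in GFP cells, but G2/M genes were at 1.39 times in aliquot 1 and 0.74 in aliquot 2; their part in these values was not tested. Neutrophil markers were at 248 CPM in GFP cells, against 2290 CPM in the others. LT-HSC markers were at 3146 against 2988 CPM, and erythroid markers at 1102 against 1699 CPM. Over all kept cells 8782 of the 9547 UMIs of the 12 erythroid genes were of Car2 alone. In this split 1 of the 12 was measured, and it was past neither bound. Without granulocyte-marker cells the log2 ratio of the fatty acid enzymes was -0.69, in place of -0.68. The mouse line, its sort gate and the source of the cells all differ at once and cannot be told apart, and cells without a GFP UMI may include undetected GFP+ cells.

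Procr, the endothelial protein C receptor, marks LT-HSCs. Cells with a Procr UMI after thinning (254 cells, median 1260 UMIs) had levels of the lipid genes near those of the other 3148 cells (median 1428 UMIs). The fatty acid enzymes stood at 879 CPM in Procr cells, against 818 CPM in the others, 1.07 times (0.96 to 1.20, draws 0.92 to 1.12). The sterol enzymes were at 0.91 times (0.77 to 1.08, draws 0.73 to 1.12) and the regulators at 1.12 times (0.96 to 1.30, draws 0.98 to 1.31). Of 20 measured genes, 1 was past the upper and 3 past the lower bound, against 7.52% and 14.3% of 6345 genes. The share of all genes with 1 direction in all draws is not given here. Fasn was the only one of the 20 with 1 direction in all draws, at 60.1 CPM in Procr cells, against 88.5 CPM in the others, 0.68 times (0.42 to 1.04, draws 0.37 to 0.86). It had 1 UMI in Procr cells of aliquot 1, and a ratio of 0.91 in aliquot 2. S phase genes were at 0.45 times and G2/M genes at 0.375 times in Procr cells. Neutrophil markers were at 363 CPM in Procr cells, against 2371 CPM in the others, with 9 of 10 past the lower bound, and LT-HSC markers were at 3871 against 2775 CPM. The part of the cycle genes in the value of Fasn was not tested. Without granulocyte-marker cells its log2 ratio was -0.58, in place of -0.56.

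Gata1 is a transcription factor of the erythroid and megakaryocyte lineages, and Klf1 is one of the erythroid lineage. The 58 cells with a UMI of either after thinning had 7 measured genes, 0 past the upper and 2 past the lower bound, against 11.5% and 15.5% of 2282 genes. The regulators stood at 316 CPM in these cells, against 471 CPM in the others, 0.67 times (0.47 to 0.93, draws 0.57 to 0.92). This sum includes Srebf2 and is not separate from its value. Srebf2 was at 0.66 times (0.42 to 1.00, draws 0.45 to 1.00), with 0.65 and 0.66 in the aliquots, and 1 of the 20 draws was above 1. Hmgcs1 had too few UMIs overall to count as measured in 58 cells, with 4.11 expected, and was singled out after its value was seen. It had 163 CPM in Gata1 or Klf1 cells of aliquot 1 (6 UMIs) and 125 CPM in those of aliquot 2 (10 UMIs), against 38.0 and 30.9 CPM in the others. Over both this was 4.15 times (2.32 to 6.92), from 16 UMIs in 10 cells, and the draws ran from 1.29 to 4.71. Because the gene was chosen for this value, neither the interval nor the 2 technical aliquots can test it. Idi1 was at 0.58 times, from 6 UMIs (1.23 in aliquot 1, 0.16 in aliquot 2). G2/M genes were at 2.57 times and megakaryocyte markers at 2.39 times in the same cells. LT-HSC markers were at 1760 CPM in them, against 3018 CPM in the others, with 6 of 8 measured past the lower bound, and neutrophil markers at 154 against 2285 CPM, with 7 of 7. The part of these markers in the values was not tested. Among cells below both cycle cuts the log2 ratio of the regulators was -0.05, in place of -0.58. The sterol enzymes were at 1.19 times (0.90 to 1.54) and the fatty acid enzymes at 0.96 times (0.77 to 1.18), and both intervals include 1.

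Whether the branches vary together from cell to cell was examined by splitting cells on one branch and measuring the others. The 589 cells with at least 1 sterol enzyme UMI after thinning had the fatty acid enzymes at 882 CPM, against 809 CPM in the other 2813 cells, 1.09 times (1.01 to 1.17, draws 1.00 to 1.12). The regulators were at 1.01 times (0.91 to 1.11). Of 14 measured genes, 0 were past either bound, against 3.30% above and 6.05% below of 9542 genes. Fasn came nearest, at 1.42 times (draws 1.02 to 1.45) (2.27 in aliquot 1, 1.13 in aliquot 2). S phase genes were at 1.20 times in the sterol-positive cells. Neutrophil markers were at 943 CPM in these cells, against 2522 CPM in the others, with 9 of 10 past the lower bound, and without granulocyte-marker cells the log2 ratio of the fatty acid enzymes was 0.12, as with them. The 260 cells with at least 2 fatty acid enzyme UMIs had the sterol enzymes at 1.05 times (0.90 to 1.21, draws 0.99 to 1.32) and the regulators at 1.14 times (0.99 to 1.30). Of 13 measured genes, 2 were past the upper and 1 past the lower bound, against 3.91% and 8.98% of 7014 genes. Neutrophil markers were at 288 CPM in these cells, against 2408 CPM in the others, with 9 of 10 past the lower bound, and without granulocyte-marker cells the log2 ratio of the sterol enzymes was 0.062, in place of 0.064. Insig1 was the highest, at 1.93 times, but its draws ran from 0.86 to 2.17. Pmvk, the other gene past the upper bound, was at 1.54 times, with 8 of its 18 UMIs in 1 cell. With a second thinning seed, 0 of 12 measured genes were past the upper bound and 3 past the lower. The shares of all genes were then 4.53% and 8.62%. At 500 UMIs a cell, 2813 of the 3402 cells had no sterol enzyme UMI, and 495 of the other 589 had exactly 1.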

How the data were processed

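Single-cell libraries of 2 technical aliquots of 1 pool were analysed. The deposited files hold raw UMI counts per feature and droplet barcode, not normalized. Build GRCm38 and the tools RSEM 1.3.0, SAMtools 1.3.1 and Bowtie 1.1.1 are named, without roles, in the submitters' processing notes. Aliquot 1 held 2147 barcodes and 1801787 UMIs, and aliquot 2 held 8662 barcodes and 4726601 UMIs.

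Cells had at least 500 UMIs, without the GFP feature, and at most 20% mitochondrial UMIs. Doublets were not removed. Scrublet in scanpy 1.11.5 marked 9 cells (0.572%) in aliquot 1 and 16 (0.875%) in aliquot 2. Cells were thinned to 500 UMIs to sort them into classes, except for GFP, where 1 UMI in the full counts was enough. Procr and Gata1 or Klf1 cells had at least 1 UMI after thinning. The other classes had a cut at the smallest count that at most 25% of cells reach. CPM were then taken from full counts summed over a class, with the splitting genes left out of totals. Ratios have exact conditional binomial 95% intervals. All 33 genes may be named, then genes measured in a comparison (at least 10 UMIs expected in the smaller set), and the 4 most abundant genes of other lipid lists. Abca1, Cpt1a and, in the Gata1 or Klf1 split, Hmgcs1 fall outside this rule and were named after their values were seen. A gene was counted as higher or lower at 1.5-fold. The members, lists and splits were chosen with earlier results of these data known. Results of the list of other sterol steps, apart from Acat1, are not reported here. Of the list genes, Trbc1 and Mpig6b had no feature. The S phase against G2/M comparison, the 20 draws, the S phase gradient and the removal of shared barcodes were chosen after seeing the data. The ratio step was tested on simulated data. Gene positions come from GENCODE vM21 (GRCm38) and promoters from RefSeq (GRCm38.p6). Software was pandas 2.3.3, scipy 1.17.1, numpy 2.4.6 and matplotlib 3.10.9 on Python 3.11.15.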

Additional observations from a re-analysis of the deposited data

Results flagged for a closer look

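The 7407 barcodes outside the cell filter, which no comparison uses, held 1233 UMIs of the 33 genes, 1433 CPM (1354 to 1515), against 1715 CPM in the kept cells. This was listed because it is a signal in barcodes left out of the comparisons. Whether these UMIs came from small cells or from free RNA was not tested.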

How the results depend on the processing

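No paired analysis was possible because the labels give 1 group. Of 273 values of the 3 gene groups under other settings, 259 stayed within the counting interval, 13 left it and 1 with an interval that excludes a ratio of 1 turned direction. Among the other values, 12 whose interval includes 1 changed sign. The cause was not tested. The share of all UMIs in the list was 0.176% with cells weighted equally, 0.214% with totals without mitochondrial and ribosomal protein genes, and 0.167 to 0.183% with 1 aliquot left out. On the log2 scale, with 1 cut higher the regulators stood at -0.40 in S phase cells and -0.13 in fatty acid-rich cells, and the sterol enzymes at 0.62 in fatty acid-rich cells. With a second thinning seed the regulators stood at 0.39 in Procr cells and 0.25 in sterol-positive cells. In GFP cells the fatty acid enzymes stood at -1.31 on thinned counts, and the regulators at -0.93 with at least 2 GFP UMIs. The regulators of Gata1 or Klf1 cells stood at -0.046 below both cycle cuts. With 1 aliquot left out, S phase over neither ran from 0.032 to 0.24 for the fatty acid and 0.11 to 0.38 for the sterol enzymes, and G2/M over neither from -0.63 to -0.27 for the regulators. The fatty acid enzymes ran from -0.090 to 0.18 in Procr cells and from -1.36 to -0.55 in GFP cells. S phase over G2/M ran from -0.060 to 0.32 for the sterol enzymes, so its direction turned in aliquot 1 alone. Among 1729 values of single genes, 200 whose interval includes a ratio of 1 changed sign, and 9 whose interval excludes 1 did so: Pmvk without 1 aliquot (-2.44 to 1.05 in S phase over neither, -1.66 to 1.13 over G2/M), and so Idi1 (-0.22 to 0.88) and Dhcr7 (-0.041 to 1.04) in S phase over G2/M, each lowest without aliquot 2; Dhcr7 in S phase over neither (-0.21), Insig1 in fatty acid-rich cells (-0.21) and Elovl1 in S phase over G2/M (-0.018) with the second seed; Insig1 on thinned counts in G2/M (0.18) and in S phase over G2/M (-0.058). Over the settings, the numbers of genes past the upper and lower bounds varied. In S phase over neither they ran from 0 to 6 and 0 to 4, of 10 to 28 measured. The shares of all genes measured were 9.42 to 11.9% and 13.4 to 18.4%. In G2/M over neither they ran from 0 to 3 and 2 to 5, of 12 to 30. The shares were 9.18 to 12.1% and 11.0 to 18.5%. In S phase over G2/M they ran from 2 to 8 and 0 to 2, of 11 to 28. The shares were 7.08 to 12.4% and 9.85 to 15.2%. In GFP cells they were 0 and 0 to 6, of 0 to 14. The shares were 3.57 to 11.5% and 8.89 to 19.3%. A sterol cut 1 lower gave no value, since the cut is 1 UMI. Depth limits most single genes: 9 of the 33 had under 100 UMIs.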
